A study of Mus musculus with 18 samples.

Results

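Cytochrome P450 genes of families 1 to 4 were examined in liver and in primary mouse embryonic fibroblasts (MEFs) of mice that lack repeat B of the noncoding RNA Xist (RepB-/-) and of wild-type mice (WT). A gene was taken as a member when its symbol consisted of Cyp, a family number from 1 to 4, a subfamily letter and a gene number, with at most 1 further letter. This gave 80 of 51826 rows of the liver table and 81 of 21959 rows of the MEF table, and 80 members were in both tables by Ensembl identifier. The symbols of 20 further liver rows of these families, pseudogenes for the most part, did not have this form and were left out. The 80 liver members fell into 3 genes of family 1, 48 of family 2, 9 of family 3 and 20 of family 4. Most stood in clusters: 15 Cyp2c genes on chromosome 19, 9 Cyp3a genes on chromosome 5, 8 Cyp2d genes on chromosome 15, 8 Cyp4f genes on chromosome 17, and 8 Cyp2j and 8 Cyp4a genes on chromosome 4, while the Cyp2a, Cyp2b, Cyp2f, Cyp2g, Cyp2s and Cyp2t genes shared a stretch of chromosome 7.

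P450 enzymes are heme proteins of the endoplasmic reticulum that receive electrons from cytochrome P450 reductase (Por) and place 1 oxygen atom into a substrate. Families 1 to 3 oxidise mostly drugs, pollutants, steroids and polyunsaturated fatty acids, and family 4 hydroxylates the end of fatty acid chains. Hepatocytes hold most of these enzymes, where the xenobiotic receptors Ahr, CAR (Nr1i3) and PXR (Nr1i2), the fatty acid receptor Ppara and hepatocyte factors such as Hnf4a are known to control them, and where the sex-specific pattern of growth hormone sets a group of them apart between male and female mice.

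The mice were made by CRISPR/Cas9 deletion in zygotes, and ICR mice are the strain named in the study's methods. There were 3 RepB-/- and 3 WT libraries of liver and as many of MEFs, without any treatment of the animals or cells in the labels. The number of founder lines, the age and sex of the liver donors, and whether libraries came from separate animals or cultures, are not given in the sources used here, so p-values measure the spread between these libraries. The MEF samples carry both the source name Tail and the name primary MEF cell line.

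Depth was between 37682201 and 51542709 counts per liver library and between 11540344 and 20587556 per MEF library. Levels of a gene across libraries are given as normalized CPM, which are counts per 1000000 of the effective library size (library total times its TMM factor). Hepatocyte markers (8 genes, among them Alb) summed to between 115464 and 198900 normalized CPM in the liver libraries and to at most 2.25 in MEFs, and fibroblast markers (8 genes, among them Col1a1) to between 13285 and 21713 in MEFs. The liver libraries differed among themselves in 2 ways before genotype was considered. In replicate 1 of both genotypes, 6 genes of fetal liver such as Afp, H19 and Igf2 summed to 6024 (RepB-/-) and 4783 (WT) normalized CPM, against 12.9 to 48.5 in replicates 2 and 3. The library labelled RepB-/- replicate 2 held 4342 counts of 4 Y-linked genes and 4 counts of Xist, while the other 5 liver libraries held at most 1 Y-linked count and between 14494 and 26345 counts of Xist. The counts cover the whole of Xist, so they do not check the deletion of repeat B itself. Xist was not analysed here in MEFs, where the 4 Y-linked genes held at most 4 counts.

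Upstream sequences are shown for close relatives, so that near-identical copies can be seen, and for Cyp1a1 and Cyp1b1, which are compared in MEFs. They are the 120 bases before the RefSeq transcript start, 5′ to 3′ on the coding strand, in build GRCm38.p6. In the Cyp3a genes of chromosome 5 the letters CATATAA are in capitals, a motif chosen after the sequences were read. Cyp3a41a lies at chr5:145720137-145720256, Cyp3a41b at chr5:145584731-145584850, Cyp3a44 at chr5:145805875-145805994, Cyp3a16 at chr5:145469724-145469843 and Cyp3a11 at chr5:145879855-145879974, all on the minus strand.
Cyp3a41a: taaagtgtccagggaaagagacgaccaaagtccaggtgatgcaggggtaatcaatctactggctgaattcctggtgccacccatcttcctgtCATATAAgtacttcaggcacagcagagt
Cyp3a41b: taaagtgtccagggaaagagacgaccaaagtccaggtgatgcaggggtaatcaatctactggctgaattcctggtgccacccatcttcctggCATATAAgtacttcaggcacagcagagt
Cyp3a44: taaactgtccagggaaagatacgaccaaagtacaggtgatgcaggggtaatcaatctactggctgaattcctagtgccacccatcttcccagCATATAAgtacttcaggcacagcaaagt
Cyp3a16: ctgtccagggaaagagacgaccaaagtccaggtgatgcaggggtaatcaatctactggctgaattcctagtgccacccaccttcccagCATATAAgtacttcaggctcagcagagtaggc
Cyp3a11: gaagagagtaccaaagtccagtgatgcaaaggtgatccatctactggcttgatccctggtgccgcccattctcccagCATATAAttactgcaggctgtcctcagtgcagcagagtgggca
The upstream bases of Cyp3a41a and Cyp3a41b were identical at 119 of 120 positions, those of Cyp3a41a and Cyp3a44 at 112 of 120. Cyp3a16 matched Cyp3a41a at 109 of 116 aligned bases and Cyp3a11 at 86 of 105. The first letter of CATATAA lay at position -28 from the start in the first 3 genes, at -32 in Cyp3a16 and at -43 in Cyp3a11. Searched on both strands of the 250 bases before the start, CATATAA was found in 8.33% of the 72 RefSeq promoters of 65 matched members and in 2.12% of all 32851 promoters of the table. The classical promoter box of letters TATAAA, which can share 5 letters with the former motif, were found in 36.1% of the member promoters and in 12.4% of all promoters.

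Cyp2a4 and Cyp2a5, steroid and coumarin hydroxylases on chromosome 7, are shown with TATAAA in capitals, for the plus strand at chr7:26307072-26307191 and chr7:26835219-26835338.
Cyp2a4: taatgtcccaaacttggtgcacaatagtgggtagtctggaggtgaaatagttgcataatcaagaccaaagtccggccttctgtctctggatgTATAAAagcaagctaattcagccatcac
Cyp2a5: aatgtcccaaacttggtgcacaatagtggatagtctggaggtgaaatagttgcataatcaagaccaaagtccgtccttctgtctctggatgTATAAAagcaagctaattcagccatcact
These 2 stretches were identical at 117 of 119 aligned bases. Cyp1a1 (chr9:57697493-57697612, plus strand) and Cyp1b1 (chr17:79715062-79715181, minus strand) are the classical targets of the aryl hydrocarbon receptor Ahr, whose core motif GCGTG, on either strand, is in capitals.
Cyp1a1: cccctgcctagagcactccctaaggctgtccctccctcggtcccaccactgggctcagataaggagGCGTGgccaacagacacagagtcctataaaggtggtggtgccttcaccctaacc
Cyp1b1: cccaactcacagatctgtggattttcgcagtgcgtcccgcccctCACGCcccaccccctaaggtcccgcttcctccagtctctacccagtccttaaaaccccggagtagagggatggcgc
GCGTG was found in 18.1% of the member promoters and in 28.2% of all promoters on either strand.

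Closely related copies also share transcript sequence, which bears on how reads could be assigned. Of the 80 members, 28 shared at least 1 stretch of 150 bases with another member in the GENCODE transcripts of GRCm38, and 6 shared more than 20% of such stretches. These were Cyp3a41a (82.9%) and Cyp3a41b (82.7%), Cyp2c40 (29.1%) and Cyp2c69 (22.5%), and Cyp4a12b (25.9%) and Cyp4a12a (25.6%). The split of counts within these pairs is uncertain, since the counting rule for shared reads is not stated.

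In liver, 67 of the 80 members exceeded 3 counts in some library, 3 stayed at 1 to 3 counts, and 10 had no count in any library, among them Cyp2w1, Cyp4x1 and 3 Cyp2j genes. Levels between genes were compared on the deposited TPM scale (transcripts per 1000000, scaled by length) as means over the 6 libraries. Cyp2e1, which oxidises ethanol and acetaminophen (chr7:140763739-140774987, GRCm38), had the highest mean of 3374 TPM with a range of 2879 to 4119. Cyp3a11, the main Cyp3a drug oxidase of mouse liver (chr5:145854426-145879964), followed with 2753 TPM and a wider range of 995 to 5115, so its order against Cyp2e1 changed between libraries. Cyp2c29, an arachidonic acid epoxygenase (chr19:39269405-39330713), came next at 1307 TPM with a range of 180.1 to 2545. A further 32 members had means between 100 and 1000 TPM, 13 between 10 and 100, 9 between 1 and 10, and 13 were above 0 but at most 1. The spread across libraries differed greatly between members of like mean: Cyp2d26 averaged 833 TPM and ran from 684 to 1019, whereas Cyp2f2, which oxidises naphthalene and is a known periportal gene, averaged 895 TPM and ran from 20.7 to 1893. Within the Cyp1 family, Cyp1a2, an oxidase of aromatic amines, averaged 513 TPM, against 0.665 for Cyp1b1 and 0.554 for Cyp1a1.

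**Figure D1:**
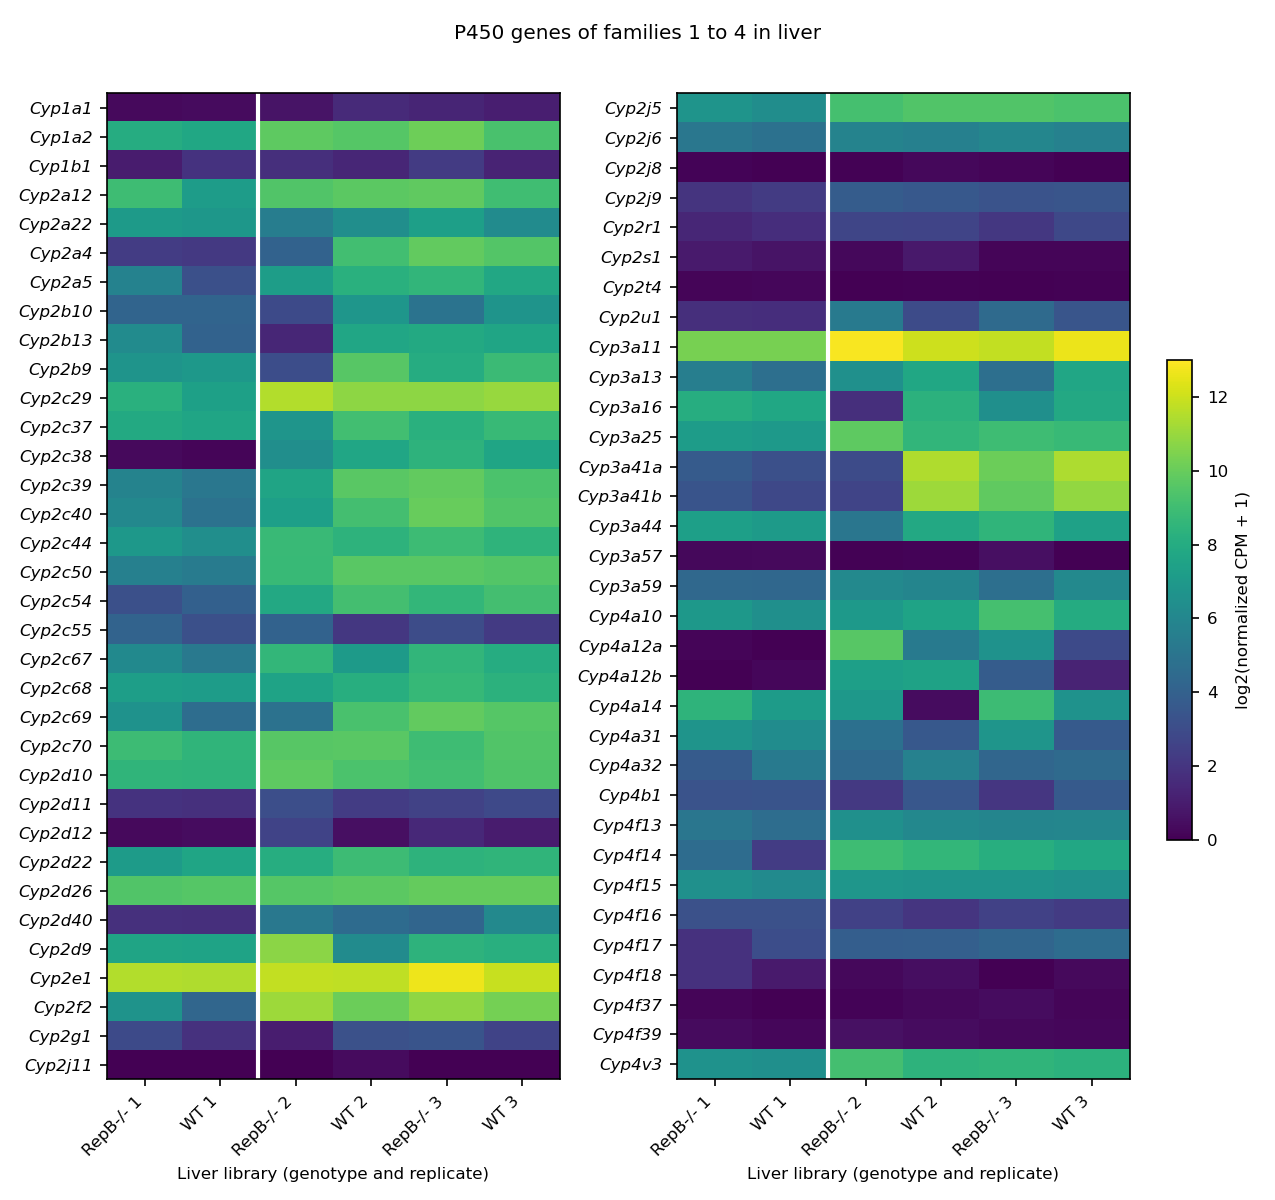
Colour gives log2(normalized CPM + 1) of the 67 P450 members with more than 3 counts in some liver library (rows, ordered by subfamily) in each of the 6 libraries (columns), with a white line between replicate 1 and replicates 2 and 3. Most Cyp2c genes are darker in both replicate 1 libraries, and Cyp3a41a and Cyp3a41b are dark in both of them and in the library labelled RepB-/- replicate 2.

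The first comparison asked how far the P450 genes set liver replicate 1 apart from replicates 2 and 3. Summed over all members, replicate 1 held 10991 (RepB-/-) and 10227 (WT) CPM, relative here to the plain library total, which is 1.10% and 1.02% of its counts. Replicates 2 and 3 held 28379 and 25643 (RepB-/-) and 29717 and 32736 (WT), which is 2.56% to 3.27% of their counts. Both replicate 1 libraries thus lay below all 4 others, with a mean of 10609 ± 540 (SD, n = 2) against 29119 ± 2948 (SD, n = 4). The exact two-sided permutation test gave p = 0.133, which is the smallest value that 2 against 4 libraries allow. In bulk RNA, fewer hepatocytes and less P450 RNA per hepatocyte cannot be told apart; the hepatocyte marker sum was 153368 and 115464 normalized CPM in replicate 1 and 126580 to 198900 in the others, so its ranges overlapped. Some genes of other cells, and genes of fetal liver, moved with the same split, and their part in the P450 difference was not tested. Of the tested genes, 6 of 7 erythroid, 5 of 8 fibroblast and 5 of 6 fetal liver genes were higher in replicate 1 (8.76% of all tested genes). Smaller shares were higher among Kupffer (1 of 5), cholangiocyte (1 of 4), endothelial (2 of 5), stellate (2 of 5) and leukocyte (2 of 5) genes. The Kupffer list summed to 291 (RepB-/-) and 828 (WT) normalized CPM in replicate 1, on either side of the 332 to 395 in the others. The fibroblast list summed to 1373 and 920.03 normalized CPM in replicate 1 and 262 to 468 in the others. The erythroid list summed to 4501 and 1623 against 256 to 2247, with overlap. Without overlap, the endothelial list summed to 293 and 297 against 205 to 229, and the stellate list to 259 and 203 against 109 to 126. Replicate 1 was also above the others for the leukocyte list (102 and 29.0 against 11.8 to 16.0) and the cholangiocyte list (15.9 and 15.2 against 7.15 to 13.3).

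**Figure D2:**
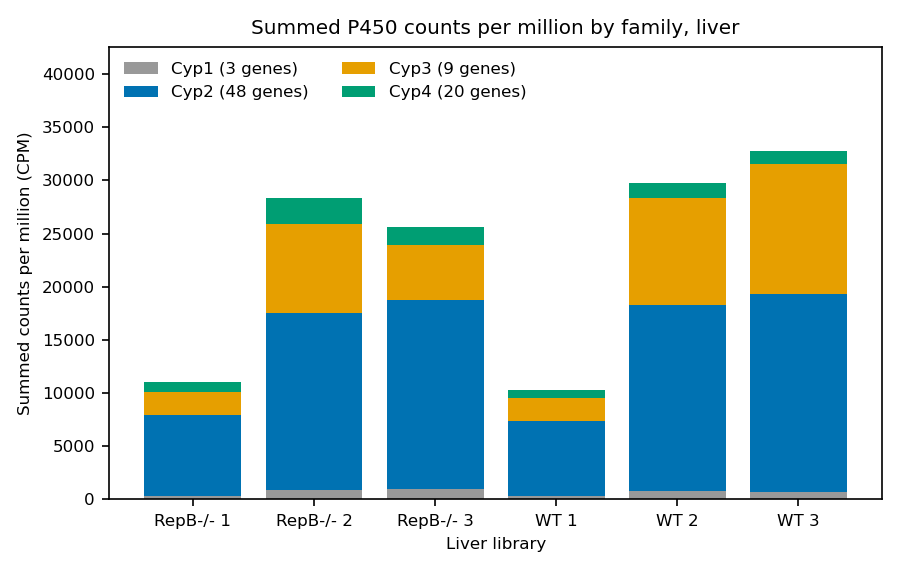
Stacked bars give the summed CPM of the P450 members in each liver library, coloured by family, on an axis that starts at 0. Both replicate 1 libraries reach 10227 to 10991, and the 4 others reach 25643 to 32736.

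The size of the difference varied by family and subfamily. Family 3, which is the Cyp3a subfamily alone, had 2121, 8361 and 5261 CPM in RepB-/- libraries 1, 2 and 3 and 2180.4, 10116 and 12267 in the WT libraries, so that the mean of replicates 2 and 3 was 4.19 times that of replicate 1. The Cyp2c subfamily had 1787, 5789 and 6560.02 CPM and 1362, 7361 and 7905 CPM in the same order, a ratio of 4.38. The ratio was 4.71 for Cyp2j, 3.29 for Cyp4f, 2.93 for Cyp1a, 1.49 for Cyp2d and 1.49 for Cyp4a. Cyp2e1 differed least among the abundant subfamilies, with a ratio of 1.25.

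Gene by gene, 27 of 63 tested members passed an adjusted p of 0.05 in edgeR's quasi-likelihood test with genotype as a term, against 15.6% of all 17030 tested genes. Of these, 26 were lower in replicate 1 (6.82% of all tested genes were lower) and 1 was higher (8.76% of all). In normalized CPM, both replicate 1 libraries lay below the 4 others for 39 of the 63 members (20.6% of all genes) and above them for 2 (24.0%). The median log2 fold change of the members was -1.43, beside 0.00 for all genes. Without the library labelled RepB-/- replicate 2, 34 of 63 members were called (11.9% of all genes), 25 of them shared with the 27, and Cyp2r1 and Cyp4f16 were lost. The count fell to 9 of 64 without RepB-/- replicate 1 (3.24% of all genes) or WT replicate 1 (2.23%), to 17 without WT replicate 2 (6.95%) and to 16 without WT replicate 3 (6.23%), and DESeq2 called 40 of 70 (15.3%). That replicate 1 stands apart was known when this comparison was chosen, so its p-values are not independent evidence that it does.

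Cyp2c genes, which form epoxides of arachidonic and linoleic acid, made up 8 of the 26, out of 13 tested. Cyp2c38 was at 0.276 (RepB-/-) and 0.134 (WT) normalized CPM in replicate 1, 86.1 and 334 in RepB-/- replicates 2 and 3, and 208 and 201 in WT replicates 2 and 3. It was close to absent in both replicate 1 libraries, which held 14 and 6 counts, and present in all 4 others (log2 fold change -9.97, SE 0.88, adjusted p = 0.00299). Cyp2c54 was at 8.04 (RepB-/-) and 14.9 (WT) normalized CPM in replicate 1, 230.1 and 393 in RepB-/- replicates 2 and 3, and 557 and 552 in WT replicates 2 and 3 (log2 fold change -5.26, SE 0.34, adjusted p = 0.00111). Cyp2c50 was at 49.7 (RepB-/-) and 40.9 (WT) normalized CPM in replicate 1, 435 and 804 in RepB-/- replicates 2 and 3, and 823 and 721 in WT replicates 2 and 3 (log2 fold change -3.94, SE 0.38, adjusted p = 0.00374). For both genes the replicate 1 libraries were far below the rest, and the library labelled RepB-/- replicate 2 was the lowest of the 4 others. Cyp2c39 had a log2 fold change of -3.86 (SE 0.75, adjusted p = 0.0218), and Cyp2c29, the most abundant Cyp2c gene, one of -3.24 (SE 0.35, adjusted p = 0.00479). Cyp2c40, a female-biased member whose reads are shared with Cyp2c69, was also called, and the sum of both genes was 162 (RepB-/-) and 52.8 (WT) normalized CPM in replicate 1, 190 and 1955 in RepB-/- replicates 2 and 3, and 1182 and 1461 in WT replicates 2 and 3. In this sum the library labelled RepB-/- replicate 2 lay with replicate 1.

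Among the other family 2 genes, Cyp2f2 (chr7:27119909-27133660) was at 100.1 (RepB-/-) and 18.9 (WT) normalized CPM in replicate 1, 2183 and 1827 in RepB-/- replicates 2 and 3, and 1069 and 1238 in WT replicates 2 and 3. Its replicate 1 libraries differed from each other, and both lay far below the other 4 (log2 fold change -5.06, SE 0.51, adjusted p = 0.00408). Cyp2a4 was at 3.91 (RepB-/-) and 3.39 (WT) normalized CPM in replicate 1, 16 and 939 in RepB-/- replicates 2 and 3, and 534 and 729 in WT replicates 2 and 3. The library labelled RepB-/- replicate 2 thus lay near replicate 1 and far from the other 3, and the call (log2 fold change -7.23, SE 1.74, adjusted p = 0.0399) was lost when any library other than RepB-/- replicate 2 was left out. Cyp2j5, an epoxygenase of liver and kidney, was at 103 (RepB-/-) and 82.8 (WT) normalized CPM in replicate 1, 581 and 699 in RepB-/- replicates 2 and 3, and 712 and 635 in WT replicates 2 and 3, with little spread within either set (log2 fold change -2.83, SE 0.25, adjusted p = 0.00279). Cyp2j6 and Cyp2j9 were also lower, so all 3 tested Cyp2j genes passed.

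Cyp2r1 and Cyp2u1, each alone in its subfamily, were called lower in replicate 1 at low levels. Cyp2r1, a vitamin D hydroxylase, was at 1.6 (RepB-/-) and 2.25 (WT) normalized CPM in replicate 1, 5.58 and 3.3 in RepB-/- replicates 2 and 3, and 5.45 and 6.04 in WT replicates 2 and 3 (log2 fold change -1.42, SE 0.32, adjusted p = 0.0328). Cyp2u1, a fatty acid hydroxylase, was at 2.35 (RepB-/-) and 2.28 (WT) normalized CPM in replicate 1, 38.9 and 21.9 in RepB-/- replicates 2 and 3, and 6.95 and 9.95 in WT replicates 2 and 3 (log2 fold change -2.73, SE 0.53, adjusted p = 0.0218). In neither gene did the replicate 1 libraries overlap the others, although Cyp2u1 was higher in the RepB-/- than in the WT libraries of replicates 2 and 3. Cyp2s1 and Cyp2g1 stayed below 10 normalized CPM in all liver libraries and were not called. Cyp2t4, with at most 8 counts in a liver library, did not pass the filter on low counts and was not tested in edgeR. The mean CPM in replicates 2 and 3 was 0.367 times that in replicate 1 for Cyp2s1 and 0.682 times for Cyp4b1, with overlapping sets and no call for either.

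Other leading members of their subfamilies did not pass. Cyp2a12, a steroid hydroxylase and the most abundant Cyp2a gene, was at 496 (RepB-/-) and 144 (WT) normalized CPM in replicate 1, 719 and 914 in RepB-/- replicates 2 and 3, and 838 and 519.98 in WT replicates 2 and 3. Cyp2b9 was at 105 (RepB-/-) and 119 (WT) normalized CPM in replicate 1, 7.49 and 264 in RepB-/- replicates 2 and 3, and 784 and 458 in WT replicates 2 and 3, with the lowest value in the library labelled RepB-/- replicate 2. Cyp2d26 was at 709.6 (RepB-/-) and 758 (WT) normalized CPM in replicate 1, 765 and 964 in RepB-/- replicates 2 and 3, and 836 and 985 in WT replicates 2 and 3, a narrow range in which the sets lay close to each other.

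In family 1, Cyp1a2 was at 266 (RepB-/-) and 209.9 (WT) normalized CPM in replicate 1, 884 and 1139.98 in RepB-/- replicates 2 and 3, and 761 and 613 in WT replicates 2 and 3, without overlap (log2 fold change -1.83, SE 0.24, adjusted p = 0.00854), while Cyp1a1 and Cyp1b1 stayed at or below 3.82 normalized CPM in every liver library. In family 3, Cyp3a11 was at 1302 (RepB-/-) and 1301 (WT) normalized CPM in replicate 1, 7477 and 3625 in RepB-/- replicates 2 and 3, and 4113 and 6262 in WT replicates 2 and 3. The 2 replicate 1 libraries were nearly equal and below the rest (log2 fold change -2.05, SE 0.41, adjusted p = 0.0233). Cyp3a25 was the other Cyp3a gene called lower. Cyp3a16, a form known from fetal and young liver, went against this pattern, with 275 (RepB-/-) and 209.7 (WT) normalized CPM in replicate 1, 2.42 and 87.7 in RepB-/- replicates 2 and 3, and 325 and 228 in WT replicates 2 and 3: its replicate 1 values lay near those of WT replicates 2 and 3 and above both RepB-/- ones, and it was not called.

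In family 4, Cyp4f14, a hydroxylase of leukotrienes, was at 22.9 (RepB-/-) and 4.02 (WT) normalized CPM in replicate 1, 502 and 286 in RepB-/- replicates 2 and 3, and 389 and 223 in WT replicates 2 and 3 (log2 fold change -5.04, SE 0.70, adjusted p = 0.00933). Cyp4v3, the counterpart of the human gene mutated in Bietti crystalline dystrophy, was at 97.9 (RepB-/-) and 88.2 (WT) normalized CPM in replicate 1, 559.9 and 356 in RepB-/- replicates 2 and 3, and 338 and 324 in WT replicates 2 and 3 (log2 fold change -2.07, SE 0.27, adjusted p = 0.00787). Neither gene overlapped between the sets. Cyp4f16 was the single member called higher, at 8.21 (RepB-/-) and 8.28 (WT) normalized CPM in replicate 1, 4.79 and 4.75 in RepB-/- replicates 2 and 3, and 3.07 and 3.74 in WT replicates 2 and 3 (log2 fold change 1.03, SE 0.23, adjusted p = 0.0332). This call was lost when any library other than RepB-/- replicate 3 was left out. Cyp4a10 and Cyp4a14, fatty acid hydroxylases induced through Ppara, were not called. Cyp4a10 was at 121 (RepB-/-) and 88 (WT) normalized CPM in replicate 1, 127 and 574 in RepB-/- replicates 2 and 3, and 183 and 255 in WT replicates 2 and 3. Cyp4a14 was at 348 (RepB-/-) and 138 (WT) normalized CPM in replicate 1, 122 and 487 in RepB-/- replicates 2 and 3, and 0.362 and 97.6 in WT replicates 2 and 3. Cyp4a14 held only 14 counts in WT replicate 2, against 6180 or more in both replicate 1 libraries.

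**Figure D3:**
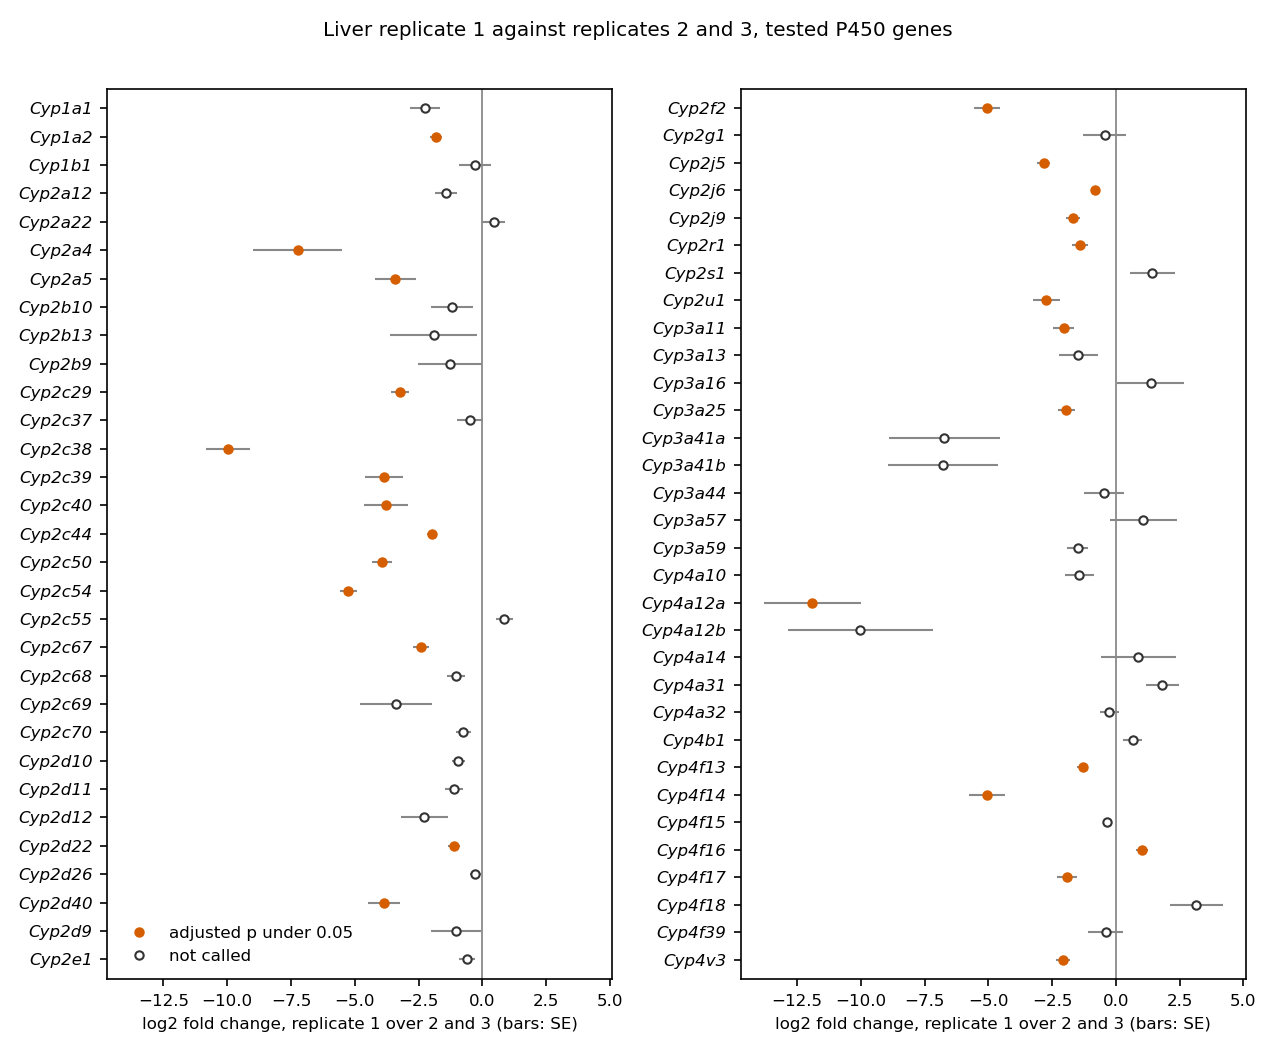
Points give the log2 fold change of replicate 1 over replicates 2 and 3 for each of the 63 tested members in liver, with bars of 1 SE, filled where the adjusted p was under 0.05. Of the filled points 26 lie left of 0, and Cyp4f16 alone lies to the right.

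Genes that serve or control the P450 enzymes were read in the same split. The counts below stand beside 6.82% of all 17030 tested genes called lower in replicate 1 and 8.76% called higher. Of 6 tested electron donor genes, 2 were lower in replicate 1, namely Cyb5b and Cyb5r3, which carry electrons through cytochrome b5. Por, the reductase itself, was at 275 (RepB-/-) and 251 (WT) normalized CPM in replicate 1, 188 and 329 in RepB-/- replicates 2 and 3, and 211 and 173 in WT replicates 2 and 3, so the sets overlapped. Of 17 receptors and regulators, 4 were lower (Nr1i3, Bcl6, Ghr and Nr1h4) and none was higher. Nr1i3, which encodes CAR, was at 43.5 (RepB-/-) and 66.6 (WT) normalized CPM in replicate 1, 123 and 114 in RepB-/- replicates 2 and 3, and 199 and 259 in WT replicates 2 and 3, without overlap. Hnf4a was 1 of 8 hepatocyte factors called lower, at 362 (RepB-/-) and 343 (WT) normalized CPM in replicate 1, 621 and 637 in RepB-/- replicates 2 and 3, and 645 and 549.7 in WT replicates 2 and 3. P450 genes of families 5 and above fell in 6 of 12 tested, for example Cyp51, a sterol demethylase of cholesterol synthesis, Cyp27a1 of bile acid synthesis and Cyp8b1, which is needed for cholic acid. Cyp8b1 was at 163 (RepB-/-) and 138 (WT) normalized CPM in replicate 1, 275 and 381 in RepB-/- replicates 2 and 3, and 328 and 275 in WT replicates 2 and 3, with both replicate 1 values below the rest. Of 16 conjugating (phase 2) enzymes 8 were lower and none higher. Pericentral genes were lower in 3 of 7 (Oat, Slc1a2 and Glul), and periportal genes were lower in 2 (Hal and Ass1) and higher in 2 (Cdh1 and Pck1) of 7.

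The second comparison, which the design of the study implies, set RepB-/- against WT liver. None of 62 tested members passed an adjusted p of 0.05 in edgeR's quasi-likelihood test, where 6 of 16080 genes did (0.0373%). An unadjusted p under 0.05 was reached by 3 members, about as many as 62 tests at this threshold give without any difference. DESeq2 called 0 of 70 members (80 of all 26998 genes). The median log2 fold change of the members was 0.08, beside 0.01 for all genes. The 3 members with an unadjusted p under 0.05 were Cyp2b10, the classical target of CAR, and Cyp2c55 and Cyp4a32, which were chosen after their values were seen. Cyp2b10 was at 17.4, 6.45 and 30.4 in the RepB-/- libraries and 17.4, 115 and 104 in the WT libraries (normalized CPM), and the ranges overlapped, with WT replicate 1 among the RepB-/- values (log2 fold change -2.12, SE 0.81, unadjusted p = 0.0357, adjusted p = 1.00). Cyp2c55 was at 16.8, 15.8 and 7.2 in the RepB-/- libraries and 7.92, 3.28 and 3.68 in the WT libraries, again with overlap. Cyp4a32 was at 12.3, 20.7 and 18.4 in the RepB-/- libraries and 40.1, 52.2 and 21.5 in the WT libraries, all RepB-/- values lying below all WT values. Cyp4b1, an oxidase best known from lung, was the other member without overlap, at 8.98, 3.51 and 3.15 in the RepB-/- libraries and 9.48, 10.5 and 12 in the WT libraries. No overlap in the lower direction was thus seen for 2 of 62 members (4.66% of all genes) and in the higher direction for 0 (3.38%).

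The summed P450 level was 21671 ± 9350 CPM in RepB-/- and 24227 ± 12218 CPM in WT liver (SD, n = 3), a difference far smaller than the spread within a genotype (exact two-sided permutation test, p = 0.6, where 3 against 3 libraries cannot go below 0.1). The most abundant genes showed no separation either. Cyp2e1 was at 2901, 3614 and 6412 normalized CPM in RepB-/- libraries 1, 2 and 3 and 2776, 3499 and 3887 in the WT libraries. Cyp3a11 was at 1302, 7477 and 3625 normalized CPM in RepB-/- libraries 1, 2 and 3 and 1301, 4113 and 6262 in the WT libraries. Both genotypes held a low replicate 1, and the highest library was RepB-/- for both genes (replicate 3 for Cyp2e1 and replicate 2 for Cyp3a11). Cyp3a13, the Cyp3a gene with the strongest intestinal expression, was at 45.9, 90.4 and 26.3 in the RepB-/- libraries and 26, 211 and 205 in the WT libraries, with overlap.

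Subfamily sums were read in the same way. Cyp2b genes together were at 212, 15.2 and 424 CPM in the RepB-/- libraries and 182, 1088 and 775 CPM in the WT libraries, the lowest being the library labelled RepB-/- replicate 2. Cyp4f genes were at 174, 707 and 375 CPM and 139.6, 568 and 413 CPM. The genotypes overlapped in both sums. Cyp4a genes were at 633, 1214 and 1027 CPM and 409, 457 and 403 CPM, so that all RepB-/- libraries lay above all WT libraries. This sum was looked at after the values were seen and was not tested, and different genes carried it: Cyp4a14 had its highest values in RepB-/- replicates 1 and 3, and Cyp4a12a its highest in the library labelled RepB-/- replicate 2. None of the genes in the lists of receptors, electron donors, hepatocyte factors or other P450 families was called between genotypes in liver (edgeR).

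Liver libraries of the same number deviated together from their genotype means (correlations over genes of 0.70, 0.35 and 0.39). Unlike numbers did so as much within replicates 2 and 3, at 0.39 for RepB-/- 2 with WT 3 and 0.39 for RepB-/- 3 with WT 2. The values thus set replicate 1 apart but do not pair replicate 2 with 2 or 3 with 3. With the number as a block, 8 of 17030 genes passed (0.047%) and 1 of 63 members did, Cyp4a12a, a fatty acid hydroxylase that is abundant in male liver and converts arachidonic acid. It was at 0.118, 787 and 97.4 normalized CPM in RepB-/- libraries 1, 2 and 3 and 0, 40.6 and 6.44 in the WT libraries. Only 6 counts and 0 counts were present in replicate 1, and in replicates 2 and 3 the RepB-/- library exceeded the WT library of the same number (edgeR with the block, log2 fold change 4.12, SE 0.31, adjusted p = 0.0307). The size of this estimate depends on the library labelled RepB-/- replicate 2: with a term for replicate 1 in place of the block it was 4.25 with that library (adjusted p = 0.464) and 2.15 without it (adjusted p = 0.616). That library is also the one with Y-linked counts, and Cyp4a12a shares 25.6% of its 150-base stretches with Cyp4a12b. Without it and with the same term, 0 of 63 members were called (3 of all 16797 genes).

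The library labelled RepB-/- replicate 2 differed from the other 3 libraries of replicates 2 and 3 in the P450 genes known to be sex-biased, which are given here as levels with no test, since 1 library has no replicate. The sex-biased lists hold 3 male-biased and 9 female-biased members, from general knowledge of mouse liver. Among the 63 tested members, 4 were more than 2-fold above all 3 (1.83% of all genes) and 14 more than 2-fold below all 3 (2.94%). These include members outside the sex-biased lists: Cyp2c55 and Cyp2d12 above, and Cyp2b10, Cyp2c37, Cyp2c38, Cyp2c39 and Cyp2g1 below. The male-biased steroid hydroxylase Cyp2d9 was at 1739.6 normalized CPM in it and at 338, 75.6 and 293 in RepB-/- 3, WT 2 and WT 3. Cyp4a12a was at 787 in it against at most 97.4. The other male-biased gene, Cyp4a12b, did not separate it, with 159.9 there and 177 in WT replicate 2, although the sum of Cyp4a12a and Cyp4a12b, which does not depend on how shared reads were split, was 947 there and 110.1, 218 and 7.90 in the others.

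All 9 female-biased members of the list were more than 2-fold lower in that library than in each of the other 3. Cyp3a41a was at 6.73 normalized CPM there, against 1092 in RepB-/- 3, 2822 in WT 2 and 2747 in WT 3, and the sum with its near-identical copy Cyp3a41b was 12.1 against 2012, 4981 and 4637. Cyp2b13 was at 1.65 there against 241, 209 and 197. Cyp3a16 was at 2.42 there against 87.7, 325 and 228. Cyp2a4, Cyp2b9, Cyp2c40, Cyp2c69 and Cyp3a44 had the same order. Cyp2a5, chosen here after its values were seen because it shares nearly all of the upstream bases of Cyp2a4, was at 147 there and at 369, 304 and 221 in the others, less than 2-fold below the lowest. Cyp3a11, with the same motif upstream as the Cyp3a41 genes, was higher in that library than in any other, at 7477.

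Sex-biased genes outside the P450 families 1 to 4 were read in the same libraries. The 5 male-biased ones summed to 1227 normalized CPM in that library and to between 213 and 471 in RepB-/- 3, WT 2 and WT 3. The male-biased Elovl3, a fatty acid elongase, was at 172 normalized CPM in the library labelled RepB-/- replicate 2 and at most 2.09 in the other 5. The regulator Cux2, which is known to be female-biased in liver, was at 0.576 there and between 9.45 and 27 in the other 5.

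The level of sex-biased members in replicate 1 differed between genes. Cyp4a12a and Cyp4a12b summed to 0.12 (RepB-/-) and 0.18 (WT) normalized CPM, and Cyp3a41a and Cyp3a41b to 21.4 and 13.9. Cyp2d9, in contrast, was at 193 and 188, above its 75.6 in WT replicate 2. Female-biased Cyp3a44 was at 158 (RepB-/-) and 134 (WT) normalized CPM in replicate 1, 33.6 and 367 in RepB-/- replicates 2 and 3, and 228 and 172 in WT replicates 2 and 3, and its replicate 1 values, like those of Cyp3a16, lay above the library labelled RepB-/- replicate 2. Of the 12 sex-biased members, 3 were called lower in replicate 1 (Cyp4a12a, Cyp2a4 and Cyp2c40), beside 41.3% of all tested members and 6.82% of all genes. Without the library labelled RepB-/- replicate 2, the female-biased Cyp2b9, Cyp2b13, Cyp2c69, Cyp3a41a and Cyp3a41b were called as well.

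**Figure D4:**
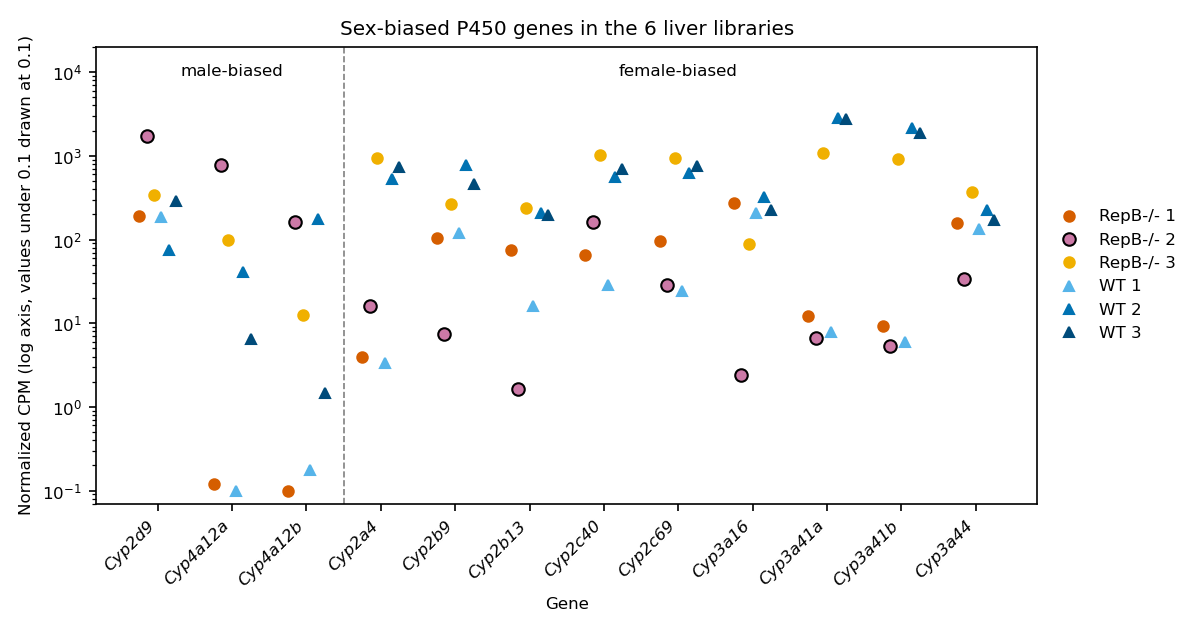
Points give normalized CPM on a log axis for the 3 male-biased and 9 female-biased members in each of the 6 liver libraries, with values under 0.1 drawn at 0.1. The library labelled RepB-/- replicate 2 (black outline) is highest for Cyp2d9 and Cyp4a12a and lies below RepB-/- 3, WT 2 and WT 3 for all 9 female-biased genes.

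The third comparison set RepB-/- against WT MEFs, where few of these genes are used. Of the 81 members, 38 exceeded 3 counts in some library, 36 stayed at 1 to 3 counts and 7 had none, and 14 passed the filter on low counts. The 14 that passed are those with the higher levels. Per length, Cyp1b1, which oxidises polycyclic hydrocarbons and estradiol, led with a mean of 128 FPKM (fragments per kilobase and per 1000000 fragments) and a range of 83.7 to 174, followed by Cyp4f16 with 10.7, Cyp4f17 with 7.81, Cyp1a1 with 6.58 and Cyp2j6 with 6.27. Cyp1b1 alone held between 73.7% and 89.4% of the members' counts.

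In edgeR's quasi-likelihood test 6 of the 14 members passed an adjusted p of 0.05, beside 39.1% of all 13306 genes. Of these, 2 were higher in RepB-/- (19.4% of all) and 4 lower (19.7%), which makes 42.9% of the tested members. DESeq2, which tested 74 members, called 4 (5.41%, beside 26.5% of all genes), without Cyp2c55 and Cyp2u1. Without the filter on low counts 10 of 74 were called (13.5%, beside 32.0% of all genes). The count was 3 without RepB-/- replicate 2, where 3956 of all 13568 tested genes were called. It was 7 without RepB-/- replicate 3 (4376 of 13561 genes) and 7 without WT replicate 2 (5233 of 13684 genes). Fibroblast genes moved with genotype as well, with 4 of 8 higher and 1 lower in RepB-/-, and their sum was 19561 to 21713 normalized CPM in RepB-/- and 13285 to 17529 in WT. Their part in the P450 values was not tested.

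The 2 Ahr targets among the tested members moved in opposite directions. Cyp1b1 was at 843, 994 and 1062 normalized CPM in RepB-/- libraries 1, 2 and 3 and 452, 602 and 595 in the WT libraries. All RepB-/- values lay above all WT values (log2 fold change 0.81, SE 0.11, adjusted p = 0.000118). Cyp1a1 was at 10.1, 10.1 and 8.26 normalized CPM in RepB-/- libraries 1, 2 and 3 and 24.5, 27.8 and 27.3 in the WT libraries. Here all RepB-/- values lay below all WT values, by a log2 fold change of -1.49 (SE 0.12, edgeR adjusted p = 1.25e-06). Both calls held whichever library was left out. Of 6 genes in the list of Ahr targets, 5 were tested: Cyp1b1 and Ahrr, the repressor of the receptor, were higher, while Cyp1a1, the quinone reductase Nqo1 and Tiparp were lower. Of 13 tested receptors and regulators, 4 were higher (Ahr, its partner Arnt, Ahrr and Stat5a) and 1 was lower (Cux2). Beside these lists and the electron donors below, 19.4% of all 13306 tested genes were higher and 19.7% lower. Ahr was at 59.2, 56.9 and 40.9 in the RepB-/- libraries and 19, 22.7 and 24.7 in the WT libraries, without overlap. Of 6 electron donor genes, Cyb5r3 was higher and Por lower in RepB-/-, Por being at 124, 131 and 131 in the RepB-/- libraries and 143, 176 and 160.4 in the WT libraries.

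Cyp4f16 was at 26.7, 23.9 and 24.8 normalized CPM in RepB-/- libraries 1, 2 and 3 and 34.4, 43 and 42.8 in the WT libraries, lower in RepB-/- without overlap (log2 fold change -0.68, SE 0.10, adjusted p = 0.000212). Cyp4f17, a neighbour of the same subfamily, was at 26.5, 28.4 and 28.4 normalized CPM in RepB-/- libraries 1, 2 and 3 and 22.6, 24.3 and 20.4 in the WT libraries, higher without overlap (log2 fold change 0.31, SE 0.10, adjusted p = 0.0233). Genes of 1 subfamily therefore differed in direction, although the call of Cyp4f17 was lost when RepB-/- replicate 2 or 3 or WT replicate 3 was left out. Cyp2u1 was at 7.34, 7.85 and 8.26 in the RepB-/- libraries and 10.5, 10.1 and 11 in the WT libraries, lower without overlap (log2 fold change -0.43, SE 0.14, adjusted p = 0.0226), and lost its call without RepB-/- replicate 1 or 2 or WT replicate 3. Cyp2c55 held only 9 to 26 counts per library and was lower in RepB-/- (log2 fold change -1.15, SE 0.40, adjusted p = 0.0364), a call that was lost without any library other than WT replicate 3. Cyp2j6 was at 22.4, 21.7 and 24.5 in the RepB-/- libraries and 22.5, 20.8 and 23.8 in the WT libraries, with full overlap, and was not called. Cyp4v3 was at 17.4, 17.5 and 14.9 in the RepB-/- libraries and 12.8, 12.4 and 14.9 in the WT libraries, with all RepB-/- values narrowly above all WT values, and had an adjusted p of 0.0556. Ranges did not overlap for 3 of 14 members in the higher direction (26.4% of all genes) and 5 in the lower (25.8%).

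**Figure D5:**
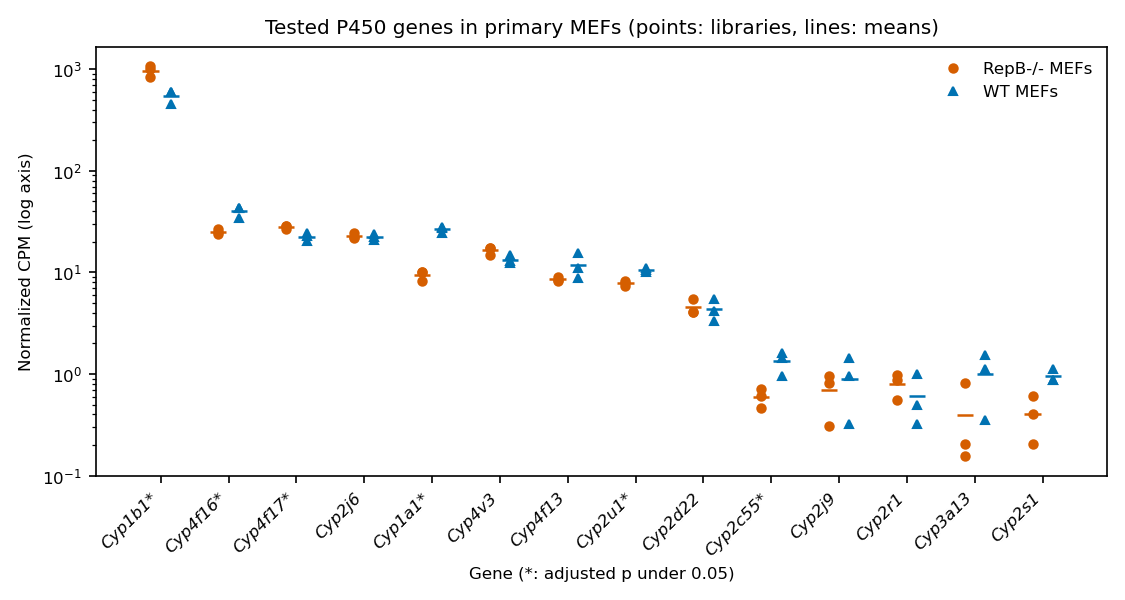
Points give the normalized CPM of each MEF library on a log axis for the 14 tested members, ordered by mean level, with lines at the means of the 3 RepB-/- and 3 WT libraries and an asterisk where the adjusted p was under 0.05. RepB-/- libraries lie above WT for Cyp1b1 and Cyp4f17 and below WT for Cyp4f16, Cyp1a1, Cyp2u1 and Cyp2c55.

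Summed over all members, RepB-/- MEFs held 1051 ± 108 CPM and WT MEFs 740 ± 66.3 CPM (SD, n = 3; ranges without overlap). The exact two-sided permutation test gave p = 0.1, the smallest possible with 3 against 3. This sum mostly repeats the level of Cyp1b1. The other members together moved the other way in families 2 and 4: family 2 was at 36.8, 35.6 and 38.9 CPM in RepB-/- and 49.7, 44.5 and 47 CPM in WT, and family 4 at 76.2, 76.4 and 74.4 CPM and 94.5, 90.4 and 93.7 CPM.

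Whether the genotype effect differed between MEFs and liver was tested by the interaction term over all 12 libraries. No member of 63 passed (edgeR, 6 with an unadjusted p under 0.05), where 0.388% of 15208 genes did, and the smallest adjusted p of a member was 0.110. Only 14 members passed the filter on low counts in MEFs alone, so most of the 63 entered through their liver counts. For those, the term rests on few or no MEF reads and cannot show a difference between the tissues. With the replicate block 1 of 64 passed, Cyp4a12a (1.07% of all genes). It held 7 counts in MEF WT replicate 1 and none in any other MEF library, so its call cannot show such a difference either. Cyp2c55 passed without liver WT replicate 1 (adjusted p = 0.0269). Cyp1b1 and Cyp1a1, both called in MEFs, were low in liver: Cyp1b1 was at 0.968, 2.36 and 3.82 in the RepB-/- libraries and 2.7, 1.65 and 1.46 in the WT libraries (normalized CPM). Cyp1a1 was at 0.237, 0.635 and 1.57 in the RepB-/- libraries and 0.312, 1.91 and 1.12 in the WT libraries, and the genotypes overlapped for both genes. A difference between the tissues is therefore not shown for either gene.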

How the data were processed

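RNA-seq was analysed for 12 libraries: liver and MEFs of RepB-/- and WT mice, 3 each; the brain samples were not analysed here. Per the study's methods, the authors sequenced stranded mRNA libraries in paired ends and processed them with Cutadapt, Hisat2 and DESeq2, while the submitters' processing notes name Trim Galore 0.4.1, STAR 2.7.0, HTSeq 0.12.4, DESeq2 and deepTools 3.5.0 with no role. Which tool counted the reads, its strand setting and its rule for reads shared by gene copies are not given in the sources used here. The authors deposited raw read counts per gene with TPM for liver (build GRCm38) and with FPKM for MEFs (build GRCm39). TPM and FPKM, as deposited by the authors, served only to compare levels between genes. The 6 other columns of per-sample values were not used.

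The letters B and W of the column names were read as RepB-/- and WT. Counts were tested with edgeR 4.0.16 (R 4.3.3, TMM, filterByExpr, quasi-likelihood F test, Benjamini-Hochberg over all tested genes, adjusted p under 0.05), separately in each table. Summed CPM were tested with exact two-sided permutation tests over every split (numpy 2.4.6). The interaction was fitted on genes matched by Ensembl identifier. Alternatives were DESeq2 1.42.0, DESeq2 size factors, no filter, each library left out, and the replicate number as a block; a term for replicate 1, with and without the library labelled RepB-/- replicate 2, and replicates 2 and 3 alone were also fitted, some of them chosen after seeing the data. The fits were tested on simulated data. Depth sets the counting error: a count of 3 was taken as the floor, below which no fold is given. Pairing was checked by correlating the deviations of libraries with the same number from their group means. This gave 0.70, 0.35 and 0.39 in liver, and -0.017, -0.033 and -0.0053 in MEFs. In liver, RepB-/- 2 with WT 3 and RepB-/- 3 with WT 2 also gave 0.39 each, so only replicate 1 was set apart by its number. In MEFs the numbers did not pair the libraries.

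Named members were, in each subfamily, the one with the highest mean CPM in liver; members called between genotypes; the 8 highest and 8 lowest called in replicate 1; sex-biased members; 10 well-known members; and the 6 most abundant in MEFs. The members and lists were chosen with earlier results of these data known, and set tests were not run. Upstream sequences are from RefSeq (GRCm38.p6), where 65 members matched, and shared transcript stretches from GENCODE.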

Additional observations from a re-analysis of the deposited data

Results flagged for a closer look

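The summed level of the Cyp4a genes was higher in all 3 RepB-/- livers than in all 3 WT livers, by a mean of 535 CPM, and lower in all 3 RepB-/- MEF libraries than in all 3 WT MEF libraries, with a difference of -0.627 CPM. The values drew attention because every library of each tissue moved one way, and the difference between the tissues was not tested. Cyp4a genes held 403 to 1214 CPM in liver and at most 0.780 CPM in MEFs, where members with very few counts were lower in RepB-/- as a group.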

How the results depend on the processing

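With 2 or 3 libraries on a side and a spread of 51.2% between livers of a genotype (edgeR's biological coefficient of variation, against 9.06% in MEFs), the liver genotype comparison could not show moderate differences. The summed P450 level of RepB-/- minus WT liver was -2556 CPM and changed sign with TMM sizes (246), with DESeq2 size factors (469), and without RepB-/- replicate 1 (2784), WT replicate 2 (189) or WT replicate 3 (1699). Leaving out each library gave -9556 to 2784, and the cause was not tested. The same range was -19669 to -17304 for replicate 1 minus replicates 2 and 3 and 267 to 372 for MEFs, all in the direction reported. Members called in liver between genotypes stayed at 0 whichever library was left out, and DESeq2 called 80 of 26998 genes but no member. In the comparison of replicate 1, the count called was 9 to 34 (9 without either replicate 1 library, when the lone library left is assumed to vary like the others, 17 without WT replicate 2 and 16 without WT replicate 3), the count lower 9 to 33 and the count higher 0 to 2, with 3 higher in DESeq2. In MEFs the count was 3 to 7, the lowest without RepB-/- replicate 2, and 10 without the filter. The interaction gave 0 to 1, the 1 being Cyp2c55 without liver WT replicate 1. With the replicate block, 1 member was called in liver and 1 in the interaction, Cyp4a12a in both. The block in MEFs, where the numbers did not pair the libraries, left 5 of 16 members called (38.1% of all genes), without Cyp2c55. DESeq2 lost Cyp2c55 and Cyp2u1. Fold changes of single genes were recomputed for those printed with one (16 in replicate 1, 4 in liver and 6 in MEFs), and none of these changed direction. Their calls were less stable. In replicate 1, Cyp2c39, Cyp3a11, Cyp2a4, Cyp2r1 and Cyp4f16 lost theirs without WT replicate 2 or WT replicate 3, and Cyp2u1 without WT replicate 3. Cyp1a2, Cyp4v3 and Cyp4a12a lost theirs when either replicate 1 library was left out, which leaves 1 library on that side. In MEFs, calls were lost in 11 leave-one-out fits of these genes and kept in 25.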

Other observations

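Members with very few counts differed between the MEF genotypes as a group. Of the 81 members, 27, 33 and 36 had no count in the WT libraries, against 58, 57 and 59 in the RepB-/- libraries, although the RepB-/- libraries were deeper (20005541 to 20587556 counts against 11540344 to 16347806). The 36 members whose highest count was 1 to 3 held 28 to 36 reads together in each WT library and 3 to 5 in each RepB-/- library. The same held for all genes: 19.6% to 21.7% of them had no count in WT and 29.2% to 29.6% in RepB-/-, and the 2857 genes with a highest count of 1 to 3 held 2021 to 2620 reads in WT and 643 to 682 in RepB-/-. The 8 hepatocyte markers summed to 0.891 to 2.25 normalized CPM in WT MEFs and to 0.310 to 0.408 in RepB-/- MEFs. Calls of members at this level, such as Cyp2c70, Cyp3a16 and Cyp3a57 without the filter on low counts, lie in this range.

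Cyp4a14 was at 0.362 normalized CPM in liver WT replicate 2 and between 97.6 and 487 in the other 5 liver libraries. In the same library Cyp4a12b was above Cyp4a12a, at 177 against 40.6 normalized CPM, whereas Cyp4a12a was the higher in RepB-/- replicates 2 and 3 and WT replicate 3.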
